A study of Arabidopsis thaliana with 18 samples.

Results

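The comparison set the Arabidopsis thaliana mutant dcl4-2 against the wild type Col-0 on MS medium without hormone, and it asks how loss of DCL4 changes small RNAs of 22 nt in seedlings without added hormone. Its members were the 6 libraries labelled Col-0 or dcl4-2 on MS, 3 biological replicates of each, of 18 libraries in 6 groups. Both groups were whole seedlings aged 14 days on the same medium, and the labels name no other allele and no agent for either group. Another label field describes shoots of older plants grown in soil, and was set aside for the sample's own tissue, age and medium. The other 4 groups, which are Col-0 and dcl4-2 on 1 µM abscisic acid (ABA) and the double mutant dcl4-2 dcl2-1 on either medium, entered only the shared estimate of the spread unless named.

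Dicer-like enzymes cut double-stranded RNA into small RNAs. DCL4 makes 21-nt siRNAs, DCL2 makes 22-nt siRNAs, and DCL1 cuts most miRNAs, commonly of 21 nt, from hairpins. DCL4 and DCL2 can act on the same double-stranded RNA, and small RNAs of 22 nt are known for starting further rounds of siRNA production on the RNA they target.

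The deposited table held 32420 genes, of which 10049 had a 22-nt read in at least 1 of the 6 libraries. Its values are normalised reads: the reads of a gene divided by a size factor of its library, with no gene length. Reads per library were recovered from the group means, and the libraries are called A, B and C within each group, which ties none of them to a replicate number. Reads in genes numbered 18018, 13801 and 11579 in Col-0 and 22796, 12553 and 16256 in dcl4-2, so 1 read was worth between 1.02 and 1.95 normalised reads. DCL4 and DCL2 had no 22-nt read in any of the 6 libraries, so these genes could not check the genotype labels. Col-0 library B stood apart from A and C at several gene groups described here: the summed level of the class III HD-ZIP genes was 252 and 401 normalised reads in A and C and 44.9 in B. In dcl4-2, library B had the lowest level of both nitrate reductase genes.

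In dcl4-2 the 22-nt RNAs of both nitrate reductase genes, NIA1 and NIA2, rose more than those of any other gene, and they fell at the class III HD-ZIP genes HB-8, REV and PHV, at 3 auxin response factor genes, at a few PPR and F-box genes, and at the miRNA locus MIR319c. Of 5697 genes with at least 1 normalised read in at least 3 libraries, 5 rose and 21 fell. These were 0.456% of the genes tested in either direction, 0.0878% in the higher and 0.369% in the lower direction. The test was limma on log2(normalised reads + 1) with all 18 libraries, passed at a Benjamini-Hochberg adjusted p under 0.05. At an unadjusted p under 0.05 there were 524 genes, 9.2% of those tested, with 144 higher, 2.53%, and 380 lower, 6.67%. The 3 libraries of each group did not overlap in 79 higher genes, 1.39% of those tested, and in 205 lower genes, 3.6%. Over all genes tested the log2 fold change had a median of -0.13, and of -0.10 and -0.05 under the scalings tried. Of the 26 calls, 11 met the minimum of reads only through the group in which the gene was higher: IBR10, FD1 and SAC9 through dcl4-2, and HB-8, ARF8, ARF10, LHCB2.3, SMXL3, ABCG14, AT4G27020 and MET1 through Col-0. With every gene that had a read, 2 rose and 3 fell, and HB-8 was the 1 of those 11 that still passed. With the 6 compared libraries alone 2 rose and 7 fell: NIA1, NIA2, HB-8, REV, ARF6, AT1G63400, AT1G63080, AT1G66490 and GUN5 passed, and the other 17 calls ended. When libraries were scaled to equal sums without NIA1 and NIA2, 5 genes rose and 12 fell, and when scaled to an equal sum of the MIRNA loci, 7 rose and 29 fell. The calls of GUN5 and PHV ended under both scalings, and those of AT2G16670, AT5G47300, AT1G62270, AT3G22350, AT4G27020 and MET1 under the first. ABCG14 was not tested under either. Without Col-0 library B 2 rose and 32 fell. In bulk seedlings, fewer cells that hold an RNA and less of it per cell cannot be told apart.

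**Figure D1:**
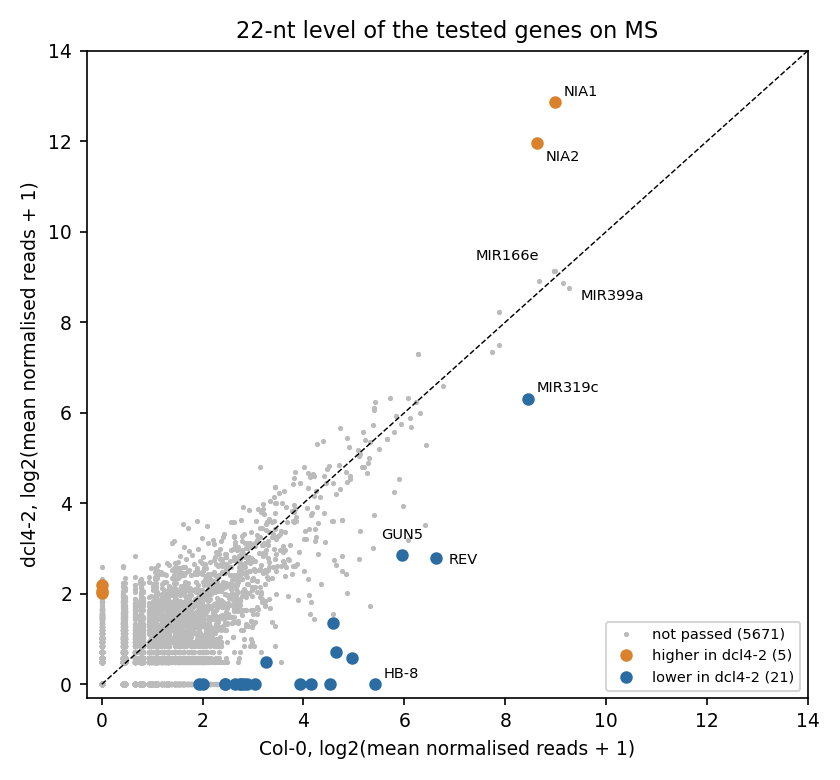
Mean 22-nt level of each of the 5697 genes tested in Col-0 (x axis) and dcl4-2 (y axis), both as log2(mean normalised reads + 1); the dashed line marks equal levels, orange points are the 5 genes that rose and blue points the 21 that fell. NIA1 and NIA2 lie far above the line at high levels, MIR319c lies below it, and most of the genes that fell lie at or near 0 in dcl4-2.

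Nitrate reductase reduces nitrate to nitrite, the first step of nitrate assimilation, and Arabidopsis has the genes NIA1 and NIA2 for it. NIA1 (AT1G77760) stood at 399, 219.9 and 906 normalised reads in Col-0 libraries A, B and C, and at 8105, 3769 and 10432 in dcl4-2. The lowest dcl4-2 library thus lay above the highest Col-0 library. NIA1 rose by 3.99 ± 0.37 on the log2 scale (SE, limma adjusted p = 1.42e-14). NIA2 (AT1G37130) stood at 348, 112 and 732 normalised reads in Col-0 and at 4359, 2055 and 5625 in dcl4-2, again without overlap. It rose by 3.59 ± 0.44 (SE, limma adjusted p = 2.75e-09). For this pair the fit left out the 3 dcl4-2 libraries on ABA, whose reads at these genes were not recovered, and so used 15 libraries. Within each genotype the libraries kept the same order at both genes. The authors' means in dcl4-2 dcl2-1 on MS were 138 normalised reads for NIA1 and 99.3 for NIA2.

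The transcripts of NIA1 and NIA2, of 3155 and 3205 nt in the RefSeq annotation of TAIR10.1, shared no stretch of 22 nt, and their longest shared run was 20 nt. A perfectly matched 22-nt read could therefore not be counted at both, while a read with a mismatch could be. The number of mismatches allowed is not stated in the labels or the table.

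The nitrate reductase genes changed the make-up of the 22-nt RNAs. Together they held 4.05%, 2.09% and 8.21% of the summed level in the Col-0 libraries and 45.4%, 30.9% and 50.8% in the dcl4-2 libraries. The mean share was 4.78% ± 3.13 in Col-0 and 42.4% ± 10.3 in dcl4-2 (SD, n = 3 each), a difference of 37.6 percentage points with no overlap. Its exact two-sided permutation p was 0.1, the smallest that 3 against 3 libraries can give. The summed 22-nt level over all genes was 18426, 15886 and 19944 normalised reads in Col-0 and 27434, 18870.1 and 31628 in dcl4-2. The ratio of the means was 1.44 (exact permutation p = 0.2), and dcl4-2 library B lay within the range of Col-0. Without NIA1 and NIA2 the sums were 17679, 15555 and 18306 in Col-0 and 14969.8, 13047 and 15571 in dcl4-2, a ratio of 0.846 (exact permutation p = 0.2). These sums overlapped in dcl4-2 library C and Col-0 library B.

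Among classes of loci, none but the nitrate reductase pair differed without overlap. The 178 MIRNA loci summed to 4120 ± 818 normalised reads in Col-0 and 4010 ± 1971 in dcl4-2 (SD, n = 3 each), a ratio of 0.973. The ratio was 0.79 for the other protein-coding genes, 0.832 for pseudogenes and transposon genes, 0.802 for the chloroplast and 0.8 for the mitochondrial genome. Exact permutation p-values over the 7 sums compared were 0.1 to 1, and 0.467 to 1 after Benjamini-Hochberg adjustment, so no class passed. None of the 83 chloroplast genes and 67 mitochondrial genes tested passed by limma, with 10 and 7 at an unadjusted p under 0.05, beside 9.2% of all genes tested. The chloroplast gene with the most reads, ATCG00020, which codes for the D1 protein of photosystem II, had 421, 619 and 648 normalised reads in Col-0 and 576, 550.2 and 278 in dcl4-2 (log2 fold change -0.31 ± 0.37 SE, limma adjusted p = 0.849). ATCG00490, the large subunit of Rubisco, had 212 ± 25.1 and 162 ± 52.7 normalised reads (SD, n = 3 each, limma adjusted p = 0.849).

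**Figure D2:**
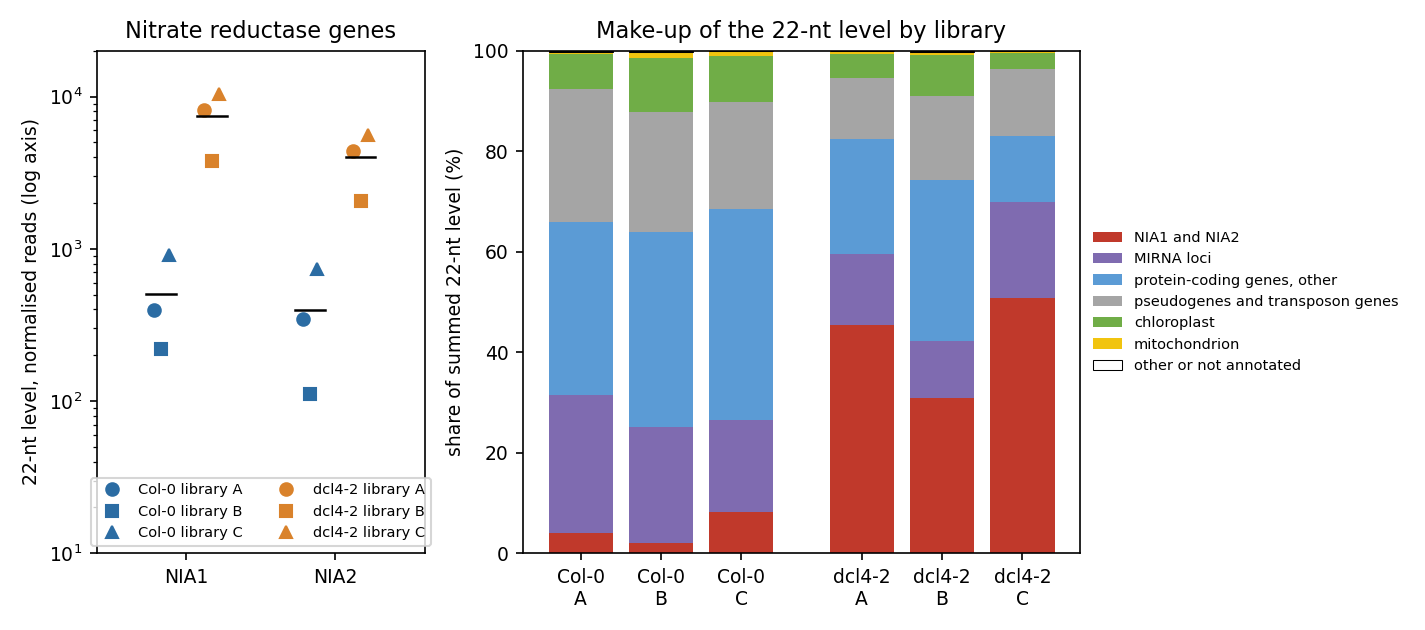
Left, 22-nt level of NIA1 and NIA2 in each library on a log axis of normalised reads, with circles, squares and triangles for libraries A, B and C and a bar at each mean. Right, share of the summed 22-nt level held by each class of loci in each library, in percent; the nitrate reductase genes go from 2.09% to 8.21% in Col-0 to 30.9% to 50.8% in dcl4-2.

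The other 3 genes that rose had few reads. IBR10, an enzyme of the conversion of indole-3-butyric acid to auxin, had no read in Col-0 and 2.41, 4.51 and 3.89 normalised reads in dcl4-2, from 7 reads in all. The ferredoxin gene FD1 and SAC9, a phosphoinositide phosphatase gene, likewise had no read in Col-0 and 6 reads each in dcl4-2. Against a floor of 3 reads over the Col-0 group, IBR10 was at least 2.82-fold higher and FD1 and SAC9 at least 2.41-fold higher. These bounds take the 7 and 6 reads in dcl4-2 as exact, and with their counting error the differences can be smaller. Limma adjusted p was 0.0364, 0.0296 and 0.0431, and each call ended without any single Col-0 library or without dcl4-2 library B. With the 6 compared libraries alone the adjusted p was 0.763 for each of the 3, so these calls rest on the spread of the other groups, where FD1 and SAC9 stayed below 1 normalised read in every library.

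Class III HD-ZIP proteins are transcription factors of leaf polarity, shoot meristem and vascular tissue, and miR166 is known to direct cleavage of their mRNAs. Of the 5 members, 4 were tested and 3 fell, beside 0.369% of all genes tested. HB-8 met the minimum of reads only through Col-0. In none of these 4 did the Col-0 and dcl4-2 libraries overlap, beside 3.6% of all genes tested that were lower without overlap. The 4 members tested had a median log2 fold change of -3.16, beside -0.13 for all genes tested. HB-8, which marks the early vascular cells, had 40.9, 10.4 and 74.1 normalised reads in Col-0 and no read in dcl4-2. Its level was at least 25.4-fold lower, against a floor of 3 reads over the dcl4-2 group (limma adjusted p = 4.55e-09). REV, the member most studied in meristem formation, had 100.2, 16.1 and 177 normalised reads in Col-0 and 8.42, 1.5 and 7.78 in dcl4-2. REV fell by 3.51 ± 0.76 on the log2 scale (SE, limma adjusted p = 0.00682). PHV had 30.7, 3.45 and 34.4 normalised reads in Col-0 and 1.2, 1.5 and 1.95 in dcl4-2. With 53 reads against 3, the Col-0 to dcl4-2 ratio of PHV was 14.6, with a 95% counting interval of 4.74 to 73.2 (limma adjusted p = 0.0281). PHB had 77.7, 14.96 and 105 normalised reads in Col-0 and 13.2, 1.5 and 9.73 in dcl4-2 and did not pass (log2 fold change -2.82 ± 0.75 SE, limma adjusted p = 0.056). The fifth member, ATHB-15, had reads in Col-0 libraries A and C alone and was not tested. The transcripts of PHB and PHV shared 137 stretches of 22 nt, with a longest run of 64 nt, and those of HB-8 and REV shared 8. Some reads could thus be counted at both genes of a pair, so the members need not be independent. Col-0 library B had the lowest Col-0 level at each member. Without that library REV, PHV and PHB passed (limma adjusted p = 2.22e-04, 3.85e-04 and 0.0065), while without Col-0 library A or C the calls of REV and PHV ended and that of HB-8 did not. Without dcl4-2 library B the calls of REV and PHV ended too, and that of PHV also without dcl4-2 library A or C. PHV had a limma adjusted p of 0.0507 and 0.0692 under the scalings tried and 0.238 with the 6 compared libraries alone.

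The windows of these transcripts that pair best with miR166e-3p are shown because they are its known target and are nearly one sequence in all 4 genes. Sequences are from RefSeq TAIR10.1, 5′ to 3′. In the miRNA the capitals mark the seed, bases 2 to 8, and in the windows they mark bases that do not form a Watson-Crick pair with the miRNA.
miR166e-3p: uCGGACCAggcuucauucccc
HB-8 window: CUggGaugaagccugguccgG
REV window: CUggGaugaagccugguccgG
PHB window: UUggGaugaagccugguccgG
PHV window: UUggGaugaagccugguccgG
Each window had 2 mismatches and 2 G:U pairs and spanned an exon junction: exons 5 and 6 of HB-8 at chr4:15866872-15866974 on the minus strand, and exons 4 and 5 of REV at chr5:24398787-24398898 on the plus strand. A score of at most 3, with 1 for each mismatch and 0.5 for each G:U pair, was reached in 6 of 31346 transcripts, 0.0191%. The table gives neither strand nor position within a gene, so it does not show whether the 22-nt reads lie at or beside the window.

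Auxin response factors (ARF) are the transcription factors of the auxin response. ARF6, ARF8 and ARF10 fell, of 13 tested, beside 0.369% of all genes tested. The family of 20 was listed after these values were seen, and ARF8 and ARF10 met the minimum of reads only through Col-0. The share of the family that fell is therefore no separate result. With the 6 compared libraries alone the limma adjusted p was 0.00361 for ARF6, 0.628 for ARF8 and 0.333 for ARF10. ARF6 and ARF8, which act together in flower maturation, are known targets of miR167, and ARF10, a regulator of germination and root cap, of miR160. ARF6 had 45.0, 2.3 and 43.1 normalised reads in Col-0 and 0, 1.5 and 0 in dcl4-2. With 71 reads against 1, its ratio was 58.8, with a 95% counting interval of 10.2 to 2355 (limma adjusted p = 9.13e-04). Col-0 library B, at 2.3, lay just above dcl4-2 library B, at 1.5. ARF10 had 10.2, 1.15 and 10.3 normalised reads in Col-0 and ARF8 had 9.2, 1.15 and 6.89, and neither had a read in dcl4-2. They were at least 4.69-fold and 3.86-fold lower (limma adjusted p = 0.0159 and 0.0163). The transcripts of ARF6 and ARF8 shared 2 stretches of 22 nt, so a read there could be counted at both. All 3 calls ended without Col-0 library A or C, with adjusted p up to 0.111, and those of ARF8 and ARF10 also without any single dcl4-2 library. The windows of ARF8 and ARF10 are shown beside their miRNAs, with capitals as before.
miR167a-5p: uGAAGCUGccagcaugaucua
ARF8 window: uagaucaGgcuggcagcuuGU
ARF6 window: GagaucaGgcuggcagcuuGU
miR160a-5p: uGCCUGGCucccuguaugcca
ARF10 window: AggAauacagggagccaggca
The ARF8 window, in exon 13 at chr5:14633841-14633861, had 3 mismatches, and the ARF6 window, in exon 14 at chr1:10686478-10686498 on the minus strand, had 4. The ARF10 window, in exon 2 at chr2:12115741-12115761, had 2. Windows with a score of at most 3 were present in 1 transcript for miR167a-5p and in 3 for miR160a-5p, 0.00319% and 0.00957% of those searched. MIR167a had no 22-nt read in any of the 6 libraries.

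Pentatricopeptide repeat (PPR) proteins bind and process RNA in mitochondria and chloroplasts, and a cluster of similar PPR genes on chromosome 1 is a known source of secondary siRNAs after targeting by miR161, miR400 and tasiRNAs. Of 24 listed PPR genes of this kind, 19 were tested and none rose, while 2 fell, beside 0.369% of all genes tested. An unadjusted p under 0.05 was reached by 10, all with lower estimates, beside 6.67% of all genes tested. The median log2 fold change of the list was -1.52. The listed genes, with the 2 that fell among them, summed to 111, 145 and 77.5 normalised reads in Col-0 and 16.85, 4.51 and 13.6 in dcl4-2. Here Col-0 library B was the highest of its group, unlike at the HD-ZIP genes. AT1G63400 had 20.5, 32.2 and 13.78 normalised reads in Col-0 and no read in dcl4-2, at least 15.5-fold lower (limma adjusted p = 9.65e-05). AT1G63080 had 22.5, 38.0 and 12.1 normalised reads in Col-0 and 0, 0 and 1.95 in dcl4-2. With 62 reads against 1, its ratio was 51.3, with a 95% counting interval of 8.88 to 2060.4 (limma adjusted p = 0.00208). Both calls held without any single library of either group. Their neighbours AT1G62914 and RPF3, a gene of mitochondrial RNA processing, had 21.5, 33.4 and 13.78 and 7.16, 10.4 and 12.1 normalised reads in Col-0. In dcl4-2 they had 2.41, 1.5 and 1.95 and 2.41, 0 and 0, and they did not pass (limma adjusted p = 0.0528 and 0.0509), though neither overlapped.

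The PPR windows for miR161.2 are shown because they are alike in neighbouring genes, with capitals as before.
miR161.2: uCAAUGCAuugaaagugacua
AT1G63400 window: uagucacuuucaaCgcauuga
AT1G63080 window: uagucacuuucaaCUcauuga
AT1G62914 window: uagucacuuucaGCgcauuga
RPF3 window: uagucacuuucaGCgcauuga
Mismatches numbered 1 in AT1G63400 (chr1:23508308-23508328), 2 in AT1G63080 (chr1:23389780-23389800, minus strand) and 1, with 1 G:U pair, in the other two. Such windows were present in 21 of 31346 transcripts, 0.067%. AT1G63400 and AT1G63080 shared 314 stretches of 22 nt, 13.7% and 14.6% of their transcripts, with a longest run of 121 nt. AT1G63400 and AT1G62914 shared 455, 19.9% and 24.9%. Reads of these genes can thus come from more than one of them, and the labels do not state how shared reads were counted, so the levels of single PPR genes are uncertain.

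Of 628 annotated F-box genes, a list made after the values were seen, 46 were tested and 4 fell, beside 0.369% of all genes tested. Because the list followed the values, that share is no separate result. All 4 were of a subfamily with an associated domain. F-box proteins select targets for ubiquitin ligases, and some of that subfamily are known targets of miR859. AT1G66490 had 13.3, 29.9 and 6.89 normalised reads in Col-0 and no read in dcl4-2, at least 11.9-fold lower (limma adjusted p = 3.01e-04). As at the PPR genes, Col-0 library B was the highest. AT5G47300 had 3.07, 9.21 and 3.44 normalised reads in Col-0, and AT1G62270 and AT3G22350 each had 3.07, 6.91 and 3.44, all with no read in dcl4-2. They were at least 3.59-fold, 3.04-fold and 3.04-fold lower (limma adjusted p = 0.0468, 0.0477 and 0.0477), calls that ended without any single library of either group. With the 6 compared libraries alone their limma adjusted p was 0.593, 0.736 and 0.736, while that of AT1G66490 was 0.00265. AT1G62270 and AT3G22350 had identical reads in the 6 libraries and share a run of 33 nt, so they may be 1 set of reads counted at both. AT1G62270 and AT5G47300 shared 6 stretches of 22 nt, so reads may be counted at both of these too. AT3G49520 had 13.3, 31.1 and 5.17 normalised reads in Col-0 and 0, 0 and 5.84 in dcl4-2 and did not pass (limma adjusted p = 0.0515). Its reads in the Col-0 libraries, 13, 27 and 3, were nearly those of AT1G66490, 13, 26 and 4. Shared sequence was not searched in that pair, so some reads may be counted at both. The windows that pair best with miR859 are shown for the pair of genes with the closest match, capitals as before.
miR859: uCUCUCUGuugugaagucaaa
AT3G49520 window: uuugaUuucacaacCgagaga
AT1G62270 window: uuugacuuUacUacagaAaga
Their scores were 1.5 and 2.5, in exon 1 at chr3:18360277-18360297 and chr1:23005222-23005242. Scores of at most 3 occurred in 76 transcripts, 0.242%. The windows of AT1G66490, AT5G47300 and AT3G22350 scored 3.5, 4.0 and 6.5.

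**Figure D3:**
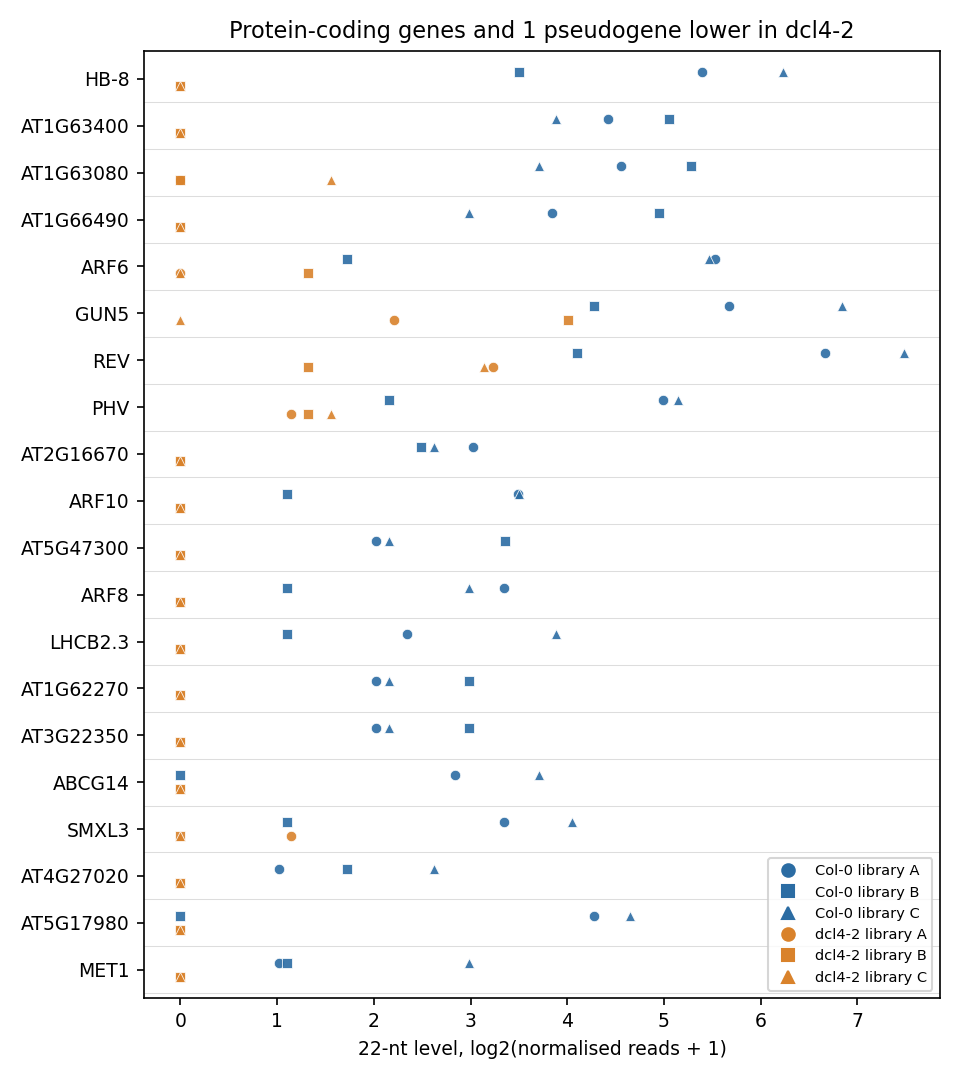
Level of each protein-coding gene and the 1 pseudogene that fell, as log2(normalised reads + 1), in each Col-0 library (blue) and dcl4-2 library (orange); marker shapes stand for libraries A, B and C. Col-0 library B (squares) is the lowest Col-0 library at HB-8, REV, PHV and the ARF genes and the highest at the PPR and F-box genes.

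Other genes that fell acted in chlorophyll synthesis, light harvesting, phloem formation, transport and DNA methylation. GUN5, the ChlH subunit of magnesium chelatase, had 50.1, 18.4 and 114 normalised reads in Col-0 and 3.61, 15.03 and 0 in dcl4-2. It fell by 3.53 ± 0.86 on the log2 scale (SE, limma adjusted p = 0.0296), and Col-0 library B lay just above dcl4-2 library B. Leaving out Col-0 library A or C or dcl4-2 library A or C ended the call, with adjusted p up to 0.344. It ended too when the MIRNA sum or the sum without NIA1 and NIA2 was made equal (0.0765 and 0.0692), with the 9 MS libraries (0.164) and with every gene that had a read (0.577), but not with the 6 compared libraries (0.00391). LHCB2.3, a light harvesting protein of photosystem II, had 4.09, 1.15 and 13.78 normalised reads in Col-0 and no read in dcl4-2, at least 3.59-fold lower (limma adjusted p = 0.0113). Without Col-0 library C or dcl4-2 library B or C its call ended, with adjusted p up to 0.103. The LHCB2.3 call ended too with the 6 compared libraries (0.628), with the 9 MS libraries (0.452) and with every gene that had a read (0.113). It held under both scalings (0.0106 and 0.0176). LHCB2.3 met the minimum of reads only through Col-0. GUN5 was the 1 of 23 listed nuclear photosynthesis genes that passed, beside 0.369% of all genes tested in the lower direction. The median log2 fold change of that list was -0.26. RBCS1A, a small subunit of Rubisco, had 51.1, 17.3 and 55.1 normalised reads in Col-0 and 20.5, 10.5 and 5.84 in dcl4-2 and did not pass (limma adjusted p = 0.513).

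The SMXL proteins are related to the repressors of strigolactone and karrikin signalling, and SMXL3, SMXL4 and SMXL5 act in phloem formation. SMXL3 fell, 1 of 5 tested among 8 members, beside 0.369% of all genes tested. It had 9.2, 1.15 and 15.5 normalised reads in Col-0 and 1.2, 0 and 0 in dcl4-2, so Col-0 library B and dcl4-2 library A overlapped. With 19 reads against 1, the ratio was 15.7, with a 95% counting interval of 2.5 to 654 (limma adjusted p = 0.0163). That call ended without Col-0 library A or C or dcl4-2 library B or C, with adjusted p up to 0.141. It ended too with the 6 compared libraries (0.628), with the 9 MS libraries (0.604) and with every gene that had a read (0.13). SMXL3 met the minimum of reads only through Col-0, so the share of 1 in 5 is no separate result. SMXL4 had 53.2, 25.3 and 84.4 normalised reads in Col-0 and 18.1, 16.5 and 19.5 in dcl4-2, without overlap and without passing (log2 fold change -1.39 ± 0.79 SE, limma adjusted p = 0.598). SMXL5 had 126, 5.76 and 121 in Col-0 and 9.63, 4.51 and 17.5 in dcl4-2 (limma adjusted p = 0.384, and 0.0349 without Col-0 library B). The transcripts of SMXL4 and SMXL5 shared no stretch of 22 nt.

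Of the remaining genes that fell, AT5G17980, annotated as a C2 domain protein, had 18.4, 0 and 24.1 normalised reads in Col-0 and no read in dcl4-2, at least 8.83-fold lower (limma adjusted p = 0.0122). ABCG14, a cytokinin transporter, had 6.14, 0 and 12.1 in Col-0 and no read in dcl4-2, at least 3.59-fold lower (limma adjusted p = 0.0468). Both were at 0 in Col-0 library B too, and both calls ended without Col-0 library A or C. The pseudogene AT2G16670 had 7.16, 4.6 and 5.17 normalised reads in Col-0 and no read in dcl4-2, at least 3.86-fold lower (limma adjusted p = 0.0478). MET1, the enzyme that keeps CG methylation through replication, and AT4G27020, annotated as an inositol phosphatase, had 6 reads each in Col-0 and none in dcl4-2. Each was at least 1.66-fold lower if the 6 reads are taken as exact, and with their counting error the difference can be smaller. Limma adjusted p was 0.0477 for both, and 0.763 for both with the 6 compared libraries alone. The calls of these 5 genes ended without dcl4-2 library B or C.

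Genes of silencing and nitrogen assimilation were mostly short of the threshold. AGO2, an Argonaute under control of miR403, had 24.5, 2.3 and 25.8 normalised reads in Col-0 and 1.2, 0 and 3.89 in dcl4-2 (limma adjusted p = 0.0634, and 0.00338 without Col-0 library B). AGO1, the main miRNA effector, had no read in Col-0 and 3.61, 3.01 and 0 in dcl4-2 (limma adjusted p = 0.462). None of the 3 tested genes of the silencing machinery and none of 10 tested genes in a list of other small RNA targets passed. In that second list, the disease resistance gene AT5G43740 had 39.9, 6.91 and 37.9 normalised reads in Col-0 and 7.22, 0 and 1.95 in dcl4-2 (limma adjusted p = 0.0589). DGAT3, a diacylglycerol acyltransferase gene named after its values were seen, had 73.6, 2.3 and 41.3 in Col-0 and 2.41, 4.51 and 0 in dcl4-2 (limma adjusted p = 0.063). None of 7 tested genes of nitrate uptake and nitrogen assimilation other than NIA1 and NIA2 passed. The highest of them in Col-0, GLT1, the NADH-dependent glutamate synthase, had 56.2, 21.9 and 109 normalised reads in Col-0 and 10.8, 16.5 and 15.6 in dcl4-2, without overlap (limma adjusted p = 0.45). The 8 TAS loci, the known sources of tasiRNAs made by DCL4, were not analysed here.

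**Figure D4:**
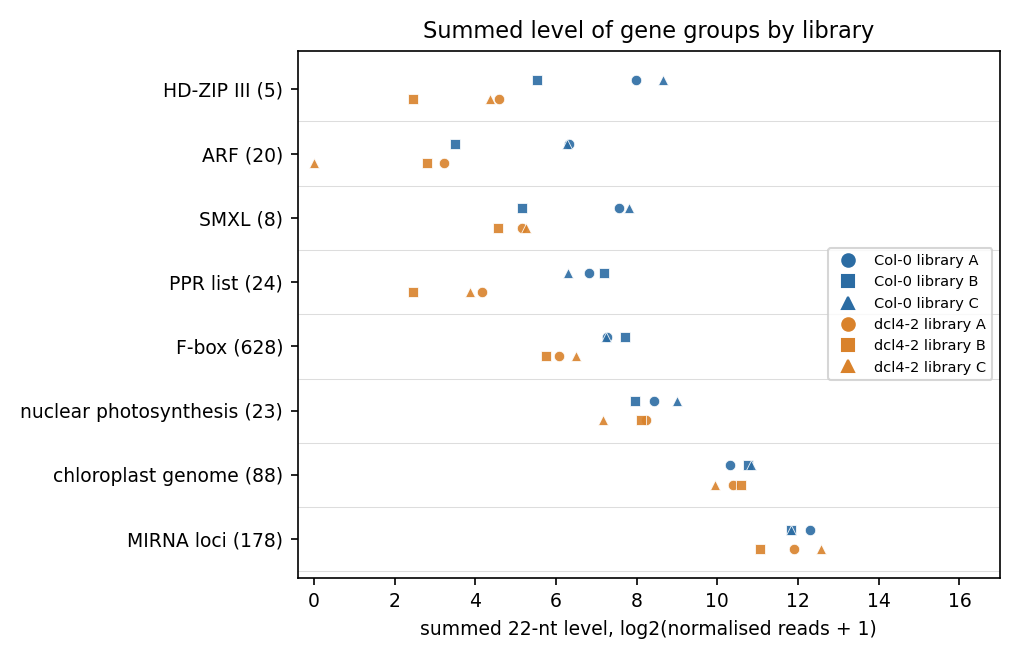
Summed 22-nt level of 8 gene groups in each library, as log2(summed normalised reads + 1), with the number of genes in each group in brackets. The class III HD-ZIP, ARF, PPR and F-box sums of each dcl4-2 library are below those of each Col-0 library, while the SMXL, photosynthesis, chloroplast and MIRNA sums overlap. The ARF and F-box lists were made after the values were seen. The class III HD-ZIP, ARF, PPR and F-box sums all include genes that fell, so they add no separate result.

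Among MIRNA loci, whose products are cut from hairpins, 1 of 94 tested passed, beside 0.456% of all genes tested in either direction. MIR319c (AT2G40805), of the family that controls TCP transcription factors of leaf growth, had 517, 358 and 176 normalised reads in Col-0 and 61.4, 37.6 and 136 in dcl4-2. MIR319c fell by 2.21 ± 0.41 on the log2 scale (SE, limma adjusted p = 3.74e-04). Its libraries did not overlap, though dcl4-2 library C lay close to Col-0 library C, and the call ended without Col-0 library A (limma adjusted p = 0.06). The call also ended with the 6 compared libraries (0.05), with the 9 MS libraries (0.215) and with every gene that had a read (0.197), while it held under both scalings. MIR319a, another source of the family, had 23.5, 16.1 and 12.1 normalised reads in Col-0 and 25.3, 27.1 and 19.5 in dcl4-2 and did not pass (log2 fold change 0.49 ± 0.74 SE, limma adjusted p = 0.863). The mature sequences share their seed, in capitals.
miR319c: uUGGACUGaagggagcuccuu
miR319a: uUGGACUGaagggagcucccu
Both annotated mature RNAs are 21 nt long, and the hairpins of MIR319c and MIR319a share no stretch of 22 nt. Which 22-nt sequence of the hairpin was read is not given by the table.

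The most abundant MIRNA loci did not pass, and their libraries overlapped. MIR399a, of the family induced by phosphate starvation, had 574, 312 and 947 normalised reads in Col-0 and 329.7, 218 and 757 in dcl4-2 (limma adjusted p = 0.749). MIR166e had 683, 448 and 379 in Col-0 and 625, 113 and 953 in dcl4-2 (limma adjusted p = 0.855), the widest spread among the loci named. MIR166f and MIR166g had identical reads and nearly those of MIR166e, so these loci cannot be told apart. MIR161, which targets PPR genes, had 365, 224 and 114 in Col-0 and 172, 194 and 177 in dcl4-2 (limma adjusted p = 0.891). MIR403 had 110.4, 95.5 and 48.2 in Col-0 and 27.7, 42.1 and 44.7 in dcl4-2, without overlap (limma adjusted p = 0.462). MIR157a, a repressor of SPL genes, was the reverse, with 65.4, 69.1 and 93.0 in Col-0 and 99.9, 160.8 and 210.1 in dcl4-2 (limma adjusted p = 0.578). The locus AT1G66795 had identical reads in the 6 libraries, so these reads cannot be assigned to MIR157a alone. MIR173, whose annotated product of 22 nt starts siRNA formation at TAS1 and TAS2, had 5.11, 3.45 and 8.61 in Col-0 and 0, 0 and 1.95 in dcl4-2 (limma adjusted p = 0.348). MIR163 had 11.2, 5.76 and 6.89 in Col-0 and 0, 0 and 1.95 in dcl4-2 (limma adjusted p = 0.186). The mature miR173-5p is shown as the 22-nt trigger.
miR173-5p: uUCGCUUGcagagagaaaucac

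**Figure D5:**
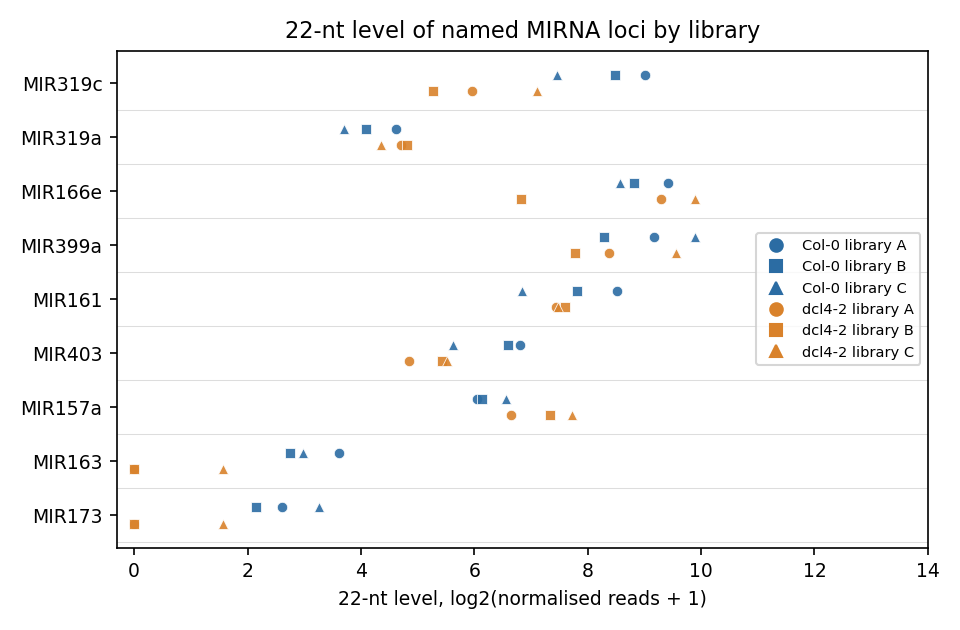
Level of 9 MIRNA loci as log2(normalised reads + 1) in each Col-0 library (blue) and dcl4-2 library (orange), with marker shapes for libraries A, B and C. MIR319c is the 1 locus that passed the test, and MIR166e and MIR399a span as wide a range within a genotype as between genotypes.

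Limma's interaction term, the difference between dcl4-2 and Col-0 on ABA minus that on MS, passed at 15 of 5695 genes tested, 0.263% (adjusted p under 0.05). Among the genes described, these were SMXL4, SMXL5, HB-8, REV, PHB, PHV, ARF6, ARF8, ARF10, AT5G17980, AT5G43740 and AGO2. In each of them the log2 difference was higher on ABA than on MS. Each also had an estimate below 0 on MS, which the term subtracts, so a positive value follows in part from the MS difference. Of these 12, 5 had no read in Col-0 on ABA and 11 had a mean under 3 normalised reads there. For those 11 the low level in Col-0 left little or no room to see a lower level in dcl4-2 on ABA. Col-0 had 39438 to 52346 reads in genes per library on ABA, more than on MS. NIA1 and NIA2 were left out of that test.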

How the data were processed

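Small RNA of whole seedlings was made into libraries with a small RNA kit and sequenced to 150 bases at both ends; the authors kept read 1, per the labels. The submitters' processing notes list Bowtie 1.2.2, SAMtools 1.9, DESeq2 and TAIR10 but no roles. Trimming, mismatches and the counting of reads shared by genes are not given in the sources used.

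The deposited table gives 1 value per gene and group. Its columns carry the heading TPM, but in each group the values were sums of 3 steps that were the same for all genes. They are therefore a signal made by the authors as reads over size factors, averaged over 3 libraries, and were treated as normalised reads. For 10 of 18 libraries the step equalled the ratio of a single gene to its geometric mean over the libraries, as median-ratio size factors do, within 1e-10 on the natural log scale. Relative to the median over the 48 genes used, the libraries ranged from 0.952 to 1.23, so the exact rule behind the size factors is not known. The design had assumed TPM or RPM, and the same test was kept. The authors' deposited log2 fold changes cover 4 comparisons, of which 0 set dcl4-2 against Col-0 on MS. They served only to check the recovery.

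Reads per library were found as the 3 whole numbers that give each deposited mean. There was 1 solution for each of the 32420 genes in both compared groups, and simulated reads came back correctly in 100% of cases. Of 1027 read patterns shared by several genes, 0 had different deposited fold changes. In dcl4-2 dcl2-1 on MS, 35 genes had several solutions and the most even was used. Between libraries of a group, chi-square per degree of freedom was 3.05 to 6.14, above sampling noise, so none is a copy.

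Limma 3.58.1 in R 4.3.3 was fitted to log2(normalised reads + 1) with a variance trend and 6 group means, and tested on simulated data. This scale understates changes of genes with few reads. Genes at 0 in a group were given as a bound against 3 reads over that group. The bound takes the reads of the other group as exact, so it overstates the smallest fold where those reads are few. Genes with 1 to 3 reads were given as a ratio with an exact 95% interval, which covers counting error only. Sums were compared by exact two-sided permutation tests, which cannot go below 0.1. Replicates are biological per the labels. Genes were named as the 15 largest changes in each direction among those that passed without overlap, members of the nitrate reductase, SMXL, HD-ZIP III and MIR173 lists, and of other lists those that passed and the most abundant. MIR319a, MIR161, MIR163, MIR403, MIR157a, AT3G49520, DGAT3 and all windows were chosen after values were seen. The members, lists and tests were chosen with earlier results of these data known. Sequences and transcripts, 1 per gene, are from RefSeq TAIR10.1.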

Additional observations from a re-analysis of the deposited data

Results flagged for a closer look

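For 12 of the genes named above, the difference between dcl4-2 and Col-0 on ABA minus that on MS passed as an interaction term of the same limma fit. That term passed in 15 of 5695 genes tested, 0.263%. In Col-0 on ABA, HB-8, PHB, PHV, ARF10 and AT5G17980 had no read, and each other gene but AT5G43740 had a mean under 3 normalised reads. For those 11 the low level in Col-0 left little or no room to see a lower level in dcl4-2 there. Where dcl4-2 was near 0 as well, as for HB-8 with 0.119 normalised reads, the value restates the difference on MS. The term subtracts the MS difference, which was below 0 in each of the 12. Only at SMXL4 and SMXL5 was the ABA difference the larger part, at 5.93 and 3.03 on the log2 scale. At the other genes the MS difference was the larger part, so their values are no separate result. All values below are the log2 difference on ABA minus that on MS, with the SE, and the MS part is the one described above.

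Among the SMXL genes of phloem formation, the value was 7.32 ± 1.12 for SMXL4 (limma adjusted p = 1.33e-05) and 5.22 ± 1.22 for SMXL5 (0.0173). On ABA, SMXL4 had 0.152 ± 0.264 normalised reads in Col-0 and 82.5 ± 56.5 in dcl4-2 (SD, n = 3 each), and SMXL5 had 2.5 ± 3.78 and 20.9 ± 11.7. Neither passed on MS alone.

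Among the class III HD-ZIP genes it was 5.53 ± 1.07 for PHB (limma adjusted p = 0.00131), 5.2 ± 0.90 for HB-8 (1.35e-04), 4.97 ± 1.08 for REV (0.00691) and 4.12 ± 0.94 for PHV (0.0156). On ABA all 4 were low in both genotypes, with means of at most 0.334 normalised reads in Col-0 and at most 5.72 in dcl4-2. For the auxin response factors it was 4.87 ± 1.04 for ARF6, 4.09 ± 0.88 for ARF10 and 3.27 ± 0.82 for ARF8 (limma adjusted p = 0.00691, 0.00691 and 0.0445). Their ABA means were at most 1.09 normalised reads in Col-0 and 2.88 in dcl4-2. The remaining values were 5.36 ± 1.15 for AT5G43740, 5.06 ± 0.95 for AT5G17980 and 4.33 ± 1.00 for AGO2 (limma adjusted p = 0.00691, 8.2e-04 and 0.0172). For REV, ARF6, ARF10 and AT5G17980 the highest dcl4-2 library on ABA was C, at 5.80 normalised reads, where 1 read was worth 1.93. That library had 19915 reads in genes, against 390890 in A and 245292 in B, so few reads lie behind these ABA levels.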

How the results depend on the processing

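NIA1 and NIA2 stayed higher and HB-8, AT1G63400 and AT1G66490 lower past the threshold in each of the 16 other settings. The counts moved more. Against 5 higher and 21 lower genes, the numbers were 2 and 11 with a pseudocount of 0.5, 2 and 3 with every gene that had a read, 2 and 5 with the 9 MS libraries, 2 and 7 with the 6 compared libraries, 2 and 9 with voom weights on 15 libraries, 5 and 12 with equal sums without NIA1 and NIA2, 7 and 29 with an equal MIRNA sum, and 5 and 26 with a pseudocount of 5. With at least 5 normalised reads 2 rose and 21 fell, of which 11 were the same. Leaving out 1 library gave 2 to 6 higher and 6 to 32 lower genes, the most without Col-0 library B and the fewest without Col-0 library C. Leaving out dcl4-2 dcl2-1 MS library C, chosen after seeing its 1063 reads, gave 5 and 31. The cause of these moves was not tested. MIR161 turned to 0.022 under equal sums without NIA1 and NIA2 and went from -0.66 to 0.18 without single libraries, MIR166e from -0.87 to 0.66 and ATCG00020 from -0.51 to 0.027, none past the threshold. Of 752 values over 48 named genes, 529 stayed on the same side of the threshold, 185 lost a call, 34 gained one and 4 changed sign. Only the 26 calls could be lost. The 529 include genes that passed neither in the main fit nor in the other setting, so they do not count calls that held. The summed level ratio lay between 1.28 and 1.63 without single libraries, that without NIA1 and NIA2 between 0.808 and 0.889, and the share difference between 33.4 and 43.3 percentage points. No paired analysis was possible because the recovered libraries carry no replicate number. The edgeR and DESeq2 alternatives were not run.

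Depth limits genes of few reads: with 11579 to 22796 reads in genes per library, a gene at 0 in 3 libraries allows up to 3 reads over the group. The test borrows spread from groups where many of these genes had no read, and 9 of 26 calls held with the 6 compared libraries alone.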
